A study of Homo sapiens with 8 samples.

Results

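The 15 sgRNAs described here tile the start site of *NFE2*, out of 91 targeting sgRNAs in the library and 22 directed at *NFE2*. They were chosen by target and design class: 13 are tiling sgRNAs and 2, NFE2_14 and NFE2_15, belong to the class placed at the TSS. The library was introduced at low multiplicity into K562, an established human erythroleukaemia cell line, in a CRISPRi version that expresses a dCas9 repressor and a CRISPRa version that expresses dCas9-VPR. The CRISPRa line was grown from a single clone. Both lines were kept in blasticidin and puromycin at 5 and 2 µg/mL, and were collected 8 days after transduction, hashed, pooled and run on 2 10X lanes. The controls were cells of the same line that carried non-targeting (NTC) sgRNAs, 536 in CRISPRi and 323 in CRISPRa. The authors discarded the cells with NTC_2 in CRISPRa because of potential off-target activity, so the set of NTC sgRNAs differed between the lines. The measurement is the log2 fold change, log2(FC), of the mean normalized expression in cells with 1 sgRNA over the mean in those NTC cells, for 92 captured genes. Each line was 1 culture, each sgRNA was measured once per line, and sgRNAs of 1 gene are not replicates, so the values carry no replicate error and no test was run.

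*NFE2* encodes the p45 subunit of the transcription factor NF-E2, a basic leucine zipper protein that binds DNA together with a small MAF protein. It acts in the erythroid and megakaryocytic lineages and is best known for its part in platelet formation. In CRISPRi, dCas9 carries repressor domains to the site that the sgRNA names. In CRISPRa it carries activator domains, so the same sgRNAs can be read for repression and for activation.

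Protospacers and PAMs of all 15 sgRNAs matched hg38 at the deposited positions, and GENCODE 44 was used for annotation. On chromosome 12 *NFE2* spans 54292111 to 54301015 and is read from the minus strand. Positions below are distances in bp from the centre of the protospacer to the TSS used by the authors, 54300949, turned to follow the strand of the gene, so that negative values are upstream. That TSS lies 66 bp downstream of the start of the canonical transcript. The sgRNAs ran from −782.5 bp for NFE2_12 to +597.5 bp for NFE2_13, with a median of 97.5 bp between neighbouring centres and no overlapping protospacers. The closest neighbours, NFE2_15 and NFE2_6, were 8 bases apart.

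Of the 15 protospacers, 3 (NFE2_15, NFE2_5 and NFE2_4) fell in the 5′ UTR of exon 1 of *NFE2*, 5 in an intron of the gene and 7 upstream of the gene. The upstream stretch also belongs to *COPZ1*, which encodes a subunit of the COPI coat and starts on the other strand at 54301202. NFE2_8 and NFE2_9 overlapped a 5′ UTR exon of *COPZ1*, and NFE2_10, NFE2_11 and NFE2_12 lay in an intron. All 15 lay in an intron of the annotated lncRNA ENSG00000258344. *COPZ1* was not analysed here.

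The sequences below are those on which the comparisons turn: the 4 sgRNAs with the highest *NFE2* in CRISPRa, the sgRNA that spans the TSS, the sgRNAs with the lowest and the highest *NFE2* in CRISPRi, and the sgRNA with the smallest increase in CRISPRa. Each is the protospacer from 5′ to 3′ on its own strand, with the PAM in capitals.
NFE2_8 (chr12:54301201-54301220, minus strand): ggactcctgggctgaaaaggAGG
NFE2_7 (chr12:54301091-54301110, minus strand): gtttcctctcttggccgaaaGGG
NFE2_6 (chr12:54301023-54301042, minus strand): ggactgagaactcaggccgaGGG
NFE2_15 (chr12:54300995-54301014, minus strand): gacgctggtgcgcctgcttgGGG
NFE2_5 (chr12:54300938-54300957, minus strand): cagcgctcagcaatggcccgGGG
NFE2_14 (chr12:54300748-54300767, minus strand): ggattccagtgagatccgagGGG
NFE2_9 (chr12:54301306-54301325, plus strand): gtcgtcgccttgtgtccccaCGG
NFE2_3 (chr12:54300685-54300704, plus strand): tctcctaggataccgaaagtTGG

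In CRISPRi, *NFE2* was below its NTC level with each of the 15 promoter sgRNAs. The log2(FC) ran from −0.36 to −0.17 with a median of −0.30, a mean of −0.29 and an SD of 0.054 across sgRNAs. Read as a level, *NFE2* was left at 77.8% to 89.1% of NTC. In CRISPRa, *NFE2* was above its NTC level with each of the 14 sgRNAs measured. Here the log2(FC) ran from 0.010 to 0.28 with a median of 0.089, a mean of 0.13 and an SD of 0.099, and the levels from 101% to 122% of NTC. Across both lines the tiled promoter thus covered 0.64 on the log2 scale. These percentages take the deposited values as logs of base 2 of a plain ratio of means. *LHX3*, which the paper describes as not expressed in blood progenitors, had the same value, −0.012, with every sgRNA directed at *TET2* in CRISPRa. A gene without counts has a finite value only if a constant is added to the means. In that case the percentages understate the change.

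The background was taken from the cells that carried *TET2* sgRNAs, in which *NFE2* was measured in the same way without being targeted. Over the 20 *TET2* sgRNAs, the log2(FC) of *NFE2* ran from −0.040 to 0.045 in CRISPRi (SD 0.025) and from −0.048 to 0.092 in CRISPRa (SD 0.034). In CRISPRi, 15 of 15 promoter sgRNAs were below the lowest of these values, whereas 4.08% of the 49 *GFI1B* and *MYB* sgRNAs were. The exceptions were GFI1B_21 at −0.13, in 17 cells, and GFI1B_19 at −0.054. In CRISPRa, 6 of 14 promoter sgRNAs were above the highest *TET2* value, against 0% of the 49 *GFI1B* and *MYB* sgRNAs. A value above 0 was common there without targeting: 16 of the 20 *TET2* and 36 of the 49 *GFI1B* and *MYB* sgRNAs had one for *NFE2*. The upper limit was set by TET2_9 alone, in 30 cells. Without it the limit was 0.0755 and 9 of 14 promoter sgRNAs were above it, the additional ones being NFE2_14, NFE2_12 and NFE2_11. The promoter sgRNAs had more cells than the *TET2* sgRNAs, with medians of 155 against 77 in CRISPRi and 119 against 59 in CRISPRa.

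At the far upstream end, in an intron of *COPZ1*, *NFE2* was well below the *TET2* range in CRISPRi, while only NFE2_10 was above it in CRISPRa. NFE2_12, at −782.5 bp, gave a log2(FC) of *NFE2* of −0.33 in CRISPRi (155 cells) and 0.088 in CRISPRa (103 cells). NFE2_11, at −710.5 bp, gave −0.21 (138 cells) and 0.078 (124 cells). These neighbours were 72 bp apart and had nearly the same value in CRISPRa while they differed by more than the whole *TET2* range in CRISPRi. NFE2_10, at −471.5 bp, gave −0.31 (192 cells) and 0.18 (164 cells), the farthest sgRNA above the *TET2* range in CRISPRa. NFE2_9, at −366.5 bp, had the log2(FC) closest to 0 of all 15 sgRNAs in CRISPRi, −0.17 in 364 cells, and its CRISPRa value was not analysed here.

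The highest *NFE2* in CRISPRa lay between −261.5 and −55.5 bp, where 4 sgRNAs in a row were at 0.24 or above. NFE2_8, at −261.5 bp, gave the maximum of 0.28 in 248 cells, with −0.33 in CRISPRi in 301 cells. NFE2_7, at −151.5 bp, gave 0.26 (67 cells) in CRISPRa and −0.24 (97 cells) in CRISPRi. NFE2_6, at −83.5 bp, gave 0.27 (82 cells) and −0.31 (91 cells). The TSS-class sgRNA NFE2_15, which lies just inside the annotated exon 1 at −55.5 bp, gave 0.24 (53 cells) and −0.34 (92 cells). The SD over these 4 sgRNAs was 0.019 in CRISPRa, below the 0.034 of *NFE2* among *TET2* sgRNAs, so their order cannot be read. In CRISPRi it was 0.045.

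At and beyond the TSS, *NFE2* was closer to its NTC level in CRISPRa and stayed below it in CRISPRi. NFE2_5, centred 1.5 bp downstream, gave 0.13 in CRISPRa, in 39 cells, the fewest of any member, and −0.28 in CRISPRi in 74 cells. NFE2_4, at +39.5 bp, gave 0.046 (127 cells) and −0.28 (174 cells), and was the sgRNA from which the attenuated *NFE2* sgRNAs were made. The second TSS-class sgRNA, NFE2_14 at +191.5 bp in the intron, had the lowest log2(FC) of the 15 in CRISPRi, −0.36 (207 cells), while in CRISPRa it gave 0.091 (182 cells), just under the highest *TET2* value.

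The 4 sgRNAs farther downstream were all inside the *TET2* range in CRISPRa. NFE2_3, at +254.5 bp, gave 0.010 in CRISPRa (232 cells) and −0.23 in CRISPRi (276 cells). NFE2_2, at +344.5 bp, had the most cells of any sgRNA in the table and gave 0.029 (495 cells) and −0.32 (567 cells). With that depth, its CRISPRa value was still inside the *TET2* range and near the *TET2* median of 0.027. NFE2_1, at +480.5 bp, gave 0.025 (114 cells) and −0.30 (153 cells). NFE2_13, at +597.5 bp, gave 0.063 (81 cells) and −0.27 (102 cells).

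Split at the TSS, the 7 downstream sgRNAs had in CRISPRi a mean log2(FC) for *NFE2* of −0.29 ± 0.042 (SD across sgRNAs), and the mean of the 8 upstream sgRNAs was −0.28 ± 0.066. The difference of −0.010 was smaller than the SD of either side. In CRISPRa the 7 downstream sgRNAs had a mean of 0.057 ± 0.043 and the 7 upstream sgRNAs 0.20 ± 0.086, a difference of −0.14. Of the upstream sgRNAs, 5 of 7 were above the highest *TET2* value, and of the downstream sgRNAs 1 of 7, NFE2_5. The 6 sgRNAs above that value were the 6 measured between −471.5 and +1.5 bp, with none within its range among them. The upstream and downstream values overlapped, because NFE2_11 and NFE2_12 at the far upstream end were below NFE2_5.

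Neighbouring sgRNAs were closer to each other than other pairs in CRISPRa but not in CRISPRi. In CRISPRa the median absolute difference between sgRNAs next to each other was 0.038, and that over all 91 pairs 0.098. In CRISPRi the median difference was 0.086 between neighbours and 0.052 over all 105 pairs. The largest step in CRISPRi, 0.16, was between NFE2_9 and NFE2_8, whose centres are 105 bp apart. The largest in CRISPRa, 0.10, was between NFE2_11 and NFE2_10.

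Across sgRNAs, as a description without a test, the log2(FC) of *NFE2* in CRISPRi had a Pearson's r of −0.14 with the signed position and 0.17 with the absolute distance from the TSS (n = 15). In CRISPRa r was −0.38 with the signed position and −0.39 with the absolute distance (n = 14). The signed relation in CRISPRa was not a straight line, since the values fell at both ends: Spearman's rho was −0.60, and r was −0.76 among the 12 sgRNAs within 600 bp. The same sgRNA in both lines gave an r of −0.26 and a rho of −0.37 (n = 14), and r was −0.032 once the 2 sgRNAs with the most extreme CRISPRi values were dropped. The points share a library, a culture per line and the NTC cells of that line.

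The distance between the lines for the same sgRNA, CRISPRa minus CRISPRi, ran from 0.24 for NFE2_3 to 0.61 for NFE2_8. Its mean was 0.50 ± 0.11 (SD) over the 7 upstream sgRNAs and 0.35 ± 0.070 over the 7 downstream sgRNAs.

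Other properties of the sgRNAs went along with position and cannot be told apart from it. The 5 sgRNAs between −261.5 and +1.5 bp all lie on the minus strand, which is the strand of *NFE2*, as do NFE2_14 and NFE2_13. In CRISPRa the 7 minus-strand sgRNAs had a mean log2(FC) of 0.19 ± 0.093 (SD) and the 7 plus-strand sgRNAs 0.066 ± 0.059. Within the downstream side the means were 0.096 ± 0.036 for 3 minus-strand sgRNAs and 0.028 ± 0.015 for 4 plus-strand sgRNAs. Within the upstream side they were 0.26 ± 0.019 for 4 and 0.12 ± 0.058 for 3. In CRISPRi the strands had means of −0.31 ± 0.043 (7 sgRNAs) and −0.27 ± 0.060 (8 sgRNAs).

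The GC content of the protospacer ran from 40% for NFE2_11 to 70% for NFE2_15 and NFE2_5, and had an r of 0.49 with the CRISPRa log2(FC) and −0.17 with that of CRISPRi. The GC content within 100 bp on either side of the centre, highest at 65.2% for NFE2_7 and NFE2_15, gave 0.53 and −0.25. The authors' on-target score ran from 0.0449 for NFE2_15 to 0.940 for NFE2_4, and had an r of −0.39 with the CRISPRa value and −0.056 with the CRISPRi value. NFE2_15, with the lowest score, had the second lowest *NFE2* in CRISPRi and the fourth highest in CRISPRa.

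The number of cells per sgRNA differed widely and in the same way in both lines, from 74 to 567 in CRISPRi and from 39 to 495 in CRISPRa, with an r of 0.995 between the lines (n = 14). The log2(FC) of *NFE2* had an r of 0.076 with the number of cells in CRISPRi and −0.32 in CRISPRa. The 4 sgRNAs with the highest *NFE2* in CRISPRa had 248, 67, 82 and 53 cells.

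Beside the promoters of the other targeted genes, the tiled *NFE2* promoter had the narrowest spread in both lines, closely followed by *MYB* in CRISPRa. Its sgRNAs also had the most cells, with medians of 155 in CRISPRi and 119 in CRISPRa. The medians of the other genes were 75 to 96 in CRISPRi and 62 to 99 in CRISPRa. How far cell numbers set the spread was not tested. If a constant is added to the means, as *LHX3* shows above, it reduces log2(FC) by an amount that depends on expression level. Expression levels were not analysed here, so the SDs and medians of the 4 genes may not be on the same scale. The SD of the targeted gene's log2(FC) across promoter sgRNAs in CRISPRi was 0.054 for *NFE2* (15 sgRNAs), 0.13 for *TET2* (15), 0.40 for *MYB* (15) and 0.52 for *GFI1B* (14). The medians were −0.30 for *NFE2*, −0.30 for *TET2*, −0.23 for *MYB* and −1.09 for *GFI1B*. The CRISPRa values had SDs of 0.099 (*NFE2*), 0.11 (*MYB*), 0.17 (*GFI1B*) and 0.28 (*TET2*). Of the 4 genes, only *NFE2* was below 0 in CRISPRi and above 0 in CRISPRa with every promoter sgRNA measured. Above 0 in CRISPRi were 3 *MYB* sgRNAs, and below 0 in CRISPRa were 4 *MYB*, 4 *GFI1B* and 3 *TET2* sgRNAs. The sign says little for *NFE2* in CRISPRa, where it was also above 0 with 16 of 20 *TET2* sgRNAs. Of its 14 values there, 8 were not above the highest of those. These differences between genes were not tested.

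The *NFE2* enhancer sgRNAs, NFE2_16 and NFE2_17, gave −0.74 in 83 cells and −0.81 in 63 cells in CRISPRi, below all 15 promoter sgRNAs. In CRISPRa they gave 0.23 and 0.096, within the range of the promoter sgRNAs. The 5 attenuated sgRNAs, which are mismatched versions of NFE2_4, gave −0.27 to 0.016 in CRISPRi and 0.00043 to 0.062 in CRISPRa, and NFE2_4 itself was lower than each of them in CRISPRi.

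The other captured genes offered a further readout. The rule for the sgRNAs used only target and design class, but it was set with earlier results of these data known. Most of the captured genes were picked by the authors because they had responded to inhibition of *GFI1B* or *NFE2* in earlier work. Shares over the 91 genes are therefore not those of unselected genes. Of the 91 other genes, 4 (4.4%) had a median log2(FC) over the promoter sgRNAs below −0.1 in CRISPRi, namely *TUBB1*, *SRGN*, *DAPP1* and *CAV2*. Above 0.1 were 6 genes (6.59%): *PLCD1*, *KLK1*, *CA1*, *CCDC173*, *CPEB4* and *S100A1*. In CRISPRa, 1 gene (1.1%), *TUBB1*, had a median above 0.1, and 6 genes (6.59%) had one below −0.1: *PLCD1*, *CA1*, *ALAS2*, *JUN*, *ERMAP* and *FOXO3*. All of these CRISPRa medians lay inside the range of the same gene under single *TET2* sgRNAs. In CRISPRi the medians of *KLK1*, *CA1*, *CCDC173*, *CPEB4* and *S100A1* did so too. Those of *TUBB1*, *SRGN*, *DAPP1*, *CAV2* and *PLCD1* in CRISPRi lay outside it. Such a median pools upstream and downstream sgRNAs, which differed for *NFE2* itself in CRISPRa. Over the upstream sgRNAs alone, the CRISPRa mean of *ALAS2* was −0.25, below its lowest *TET2* value of −0.20. The upstream means of *TUBB1*, *PLCD1*, *CA1*, *JUN*, *ERMAP* and *FOXO3* in CRISPRa were inside their *TET2* ranges. The limit of 0.1 was set after the values were seen.

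In CRISPRi, 11 genes (12.1%) were below 0 with each of the 15 promoter sgRNAs and 4 (4.4%) above 0 with each. In CRISPRa the corresponding numbers over 14 sgRNAs were 1 (1.1%) and 2 (2.2%). Because all values of a line share the same NTC cells, a shift of those cells moves all values of a gene together. The 15 *TET2* promoter sgRNAs, which share the same cells, had 0 of 90 genes below 0 throughout and 0 above 0 throughout in CRISPRi. In CRISPRa 1 gene, *LHX3*, was below 0 throughout, at the same value of −0.012 with every *TET2* sgRNA. The *TET2* promoter sgRNAs had fewer cells, with medians of 86 against 155 in CRISPRi and 62 against 119 in CRISPRa. The counts are therefore not on equal terms, and a part of the NTC cells in them was not tested.

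The genes whose log2(FC) ran most closely with that of *NFE2* over the 29 promoter perturbations were *SRGN*, *MPP1* and *TUBB1*. *SRGN* encodes serglycin, the proteoglycan of secretory granules in blood cells, *MPP1* the red cell membrane protein p55, and *TUBB1* the beta tubulin of platelets. Pearson's r was 0.957, 0.955 and 0.952 over both lines together. Part of this is the distance between the lines, and within a line, where a shift of the NTC cells cancels, r was lower: 0.72, 0.85 and 0.68 in CRISPRi and 0.58, 0.65 and 0.61 in CRISPRa.

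*TUBB1* in CRISPRi ran from −0.56 with NFE2_12 to −0.25 with NFE2_9, with a median of −0.36, and all 15 values were below 0. Under *TET2* sgRNAs it ran from −0.29 to 0.28. In CRISPRa it ran from −0.011 with NFE2_2 to 0.39 with NFE2_5, and 13 of 14 values were above 0. Under *TET2* sgRNAs it ran there from −0.14 to 0.33, with a median of 0.075. The means for *TUBB1* in CRISPRa were 0.24 ± 0.098 (SD) upstream and 0.12 ± 0.14 downstream, which overlapped.

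*SRGN* ran from −0.23 with NFE2_8 to −0.13 with NFE2_11 in CRISPRi, and each value was below the lowest *TET2* value of −0.12. In CRISPRa its range of −0.041 to 0.051 stayed within the *TET2* range of −0.14 to 0.051. *MPP1* had a narrower range, from −0.088 with NFE2_15 to −0.024 with NFE2_9 in CRISPRi, with *TET2* values from −0.044 to 0.033. NFE2_9, with *NFE2* closest to 0 in CRISPRi, also had *TUBB1* and *MPP1* closest to 0, whereas *SRGN* was closest to 0 with NFE2_11. These genes were picked for their r with *NFE2* over the same values, so such agreement is partly built into the choice.

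The genes that ran most closely in the opposite direction were *TXN*, *PLCD1* and *CA8*, with r of −0.914, −0.891 and −0.859 over both lines. *TXN* encodes thioredoxin, *PLCD1* a phospholipase C and *CA8* a protein related to the carbonic anhydrases. Their r within CRISPRi was −0.78, −0.50 and −0.46, and within CRISPRa −0.79, −0.45 and −0.92. The values of *TXN* were small, from 0.012 to 0.036 in CRISPRi and from −0.024 to 0.019 in CRISPRa. Under *TET2* sgRNAs it ran from −0.013 to 0.019 in CRISPRi. All promoter sgRNAs except NFE2_11 and NFE2_9 were above that range, with a median of 0.026. In CRISPRa all its values were inside the *TET2* range of −0.052 to 0.036.

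*CA8* differed with the position of the sgRNAs in CRISPRa. Like *TXN* and *PLCD1*, it was picked for its r with *NFE2* over the same values, so such a pattern is partly built into the choice. With NFE2_10, NFE2_8, NFE2_7, NFE2_6 and NFE2_15 its log2(FC) was −0.12, −0.15, −0.14, −0.16 and −0.18, all below the lowest *TET2* value of −0.068. With the other 9 sgRNAs it lay between −0.039 and 0.029, and NFE2_5, with *NFE2* at 0.13, gave −0.029. The mean of *CA8* was −0.12 ± 0.062 (SD) over the 7 upstream and −0.0055 ± 0.026 over the 7 downstream sgRNAs. In CRISPRi *CA8* lay between 0.0068 and 0.060 with all 15 sgRNAs, with means of 0.035 upstream and 0.039 downstream.

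*PLCD1* in CRISPRi ran from 0.063 with NFE2_9 to 0.27 with NFE2_1, and all 15 values were above 0. Under *TET2* sgRNAs it ran from −0.22 to 0.14 with a median of −0.040, so NFE2_9 and NFE2_3, at 0.13, were inside that range. In CRISPRa it ran from −0.41 with NFE2_15 to 0.14 with NFE2_5, with means of −0.30 ± 0.097 (SD) upstream and −0.082 ± 0.13 downstream. Its *TET2* values there had a median of −0.14 and a range of −0.56 to 0.12, so its median was below 0 there as well. *CA1*, a carbonic anhydrase of red cells, had medians of 0.12 in CRISPRi and −0.18 in CRISPRa. Both were inside the range of *CA1* under *TET2* sgRNAs, which was −0.57 to 0.24 with a median of −0.14 in CRISPRi and −0.37 to 0.35 in CRISPRa. Its r with *NFE2* within each line was 0.21 and −0.013, so its values did not run with those of *NFE2* among sgRNAs.

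By gene list, 2 of the 3 measured platelet genes had a median below −0.1 in CRISPRi (*TUBB1* and *SRGN*) and 1 was within 0.1 of 0, *ANKRD26* at 0.0071. Over the 91 other genes 4.4% were below −0.1, and the list of 3 is too short to set against that share. The median of the list was −0.18, beside 0.0051 over the 91 genes. In CRISPRa, 1 of the 3, *TUBB1*, was above 0.1, beside 1.1% of the 91, with *SRGN* at 0.013 and *ANKRD26* at −0.029, and the median of the list was 0.013. Among the red cell genes, *CA1* had a median above 0.1 in CRISPRi. *ALAS2*, the first enzyme of heme synthesis in erythroid cells, was at 0.024 there, *HBZ* at 0.0034 and *SLC25A37* at −0.0043. In CRISPRa, *CA1* and *ALAS2* were below −0.1, while *HBZ* was at −0.075 and *SLC25A37* at −0.018, beside a median of 0.0056 over the 91 other genes. *ALAS2* had a median of −0.13 there, with single sgRNAs from −0.51 to 0.24 and means of −0.25 ± 0.19 (SD) upstream and −0.049 ± 0.14 downstream.

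All 6 measured blood transcription factors (*GFI1B*, *MYB*, *GATA2*, *NFIA*, *SPI1* and *RUNX1*) had medians within 0.1 of 0 in both lines, from −0.073 for *SPI1* to 0.026 in CRISPRi and from −0.0013 to 0.084 in CRISPRa. So did 81 of the 91 other genes in CRISPRi and 84 in CRISPRa. The 3 stimulus-induced genes lay between 0.024 and 0.053 in CRISPRi. In CRISPRa *JUN* was at −0.11, and *BTG2* and *BHLHE40* at 0.045 and 0.060. *BTG2* had means of −0.11 ± 0.13 (SD) over the upstream and 0.10 ± 0.11 over the downstream sgRNAs there.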

How the data were processed

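The 8 libraries of the series (4 cDNA, 2 sgRNA, 2 hashing) enter 1 deposited table that pools them. The authors counted UMIs with Cell Ranger on a targeted panel (GRCh38), assigned hashing tags with Alevin, removed cells of low quality or with more than 1 sgRNA, merged both lanes, normalized with Seurat and compared each sgRNA with NTC cells of its line. The values used are the authors' deposited log2 fold changes, with cell numbers and deposited sgRNA scores. The methods write a natural log, whereas the column name gives log2, which was taken here. UMI counts were not analysed here, so depth is given as cells. The table also holds p-values and FDRs computed over cells, which were not used.

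Members are *NFE2* sgRNAs of classes TSS and Tiling. The members and gene lists were chosen with earlier results of these data known. The sign of the deposited distance was turned. Protospacers were matched to hg38 and GENCODE 44. Named genes are the 3 with the highest and the 3 with the lowest r with *NFE2* among those with the same sign of r in each line, the 3 with the largest absolute median in each line, the members of the gene lists, and those past 0.1. Lists were red cell, platelet, blood transcription factor and stimulus-induced genes. A red cell gene of these lists is not reported here. Python 3.11.15, numpy 2.4.6, pandas 2.3.3 and scipy 1.17.1 were used.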

Additional observations from a re-analysis of the deposited data

How the results depend on the processing

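Each line was 1 culture, so no alternative measures the spread between cultures, and depth limits the values of sgRNAs with few cells most (39 for NFE2_5 in CRISPRa). The difference between downstream and upstream sgRNAs in CRISPRi, −0.010, turned to 0.0060 over the sgRNAs measured in both lines, an alternative added after the data were seen, and ran from −0.021 to 0.0060 when each sgRNA was left out, turning without NFE2_9 and without NFE2_14. The r with signed position in CRISPRi ran from −0.31 to 0.031, turning without NFE2_11. In CRISPRa the r with absolute distance moved from −0.39 to −0.59 from the annotated start, and the r with signed position from −0.38 to −0.60 (Spearman) and −0.76 (without the 2 farthest sgRNAs). The number of CRISPRa sgRNAs above background was 9 in place of 6 without TET2_9, or with the *GFI1B* and *MYB* sgRNAs as background, both added after the data were seen, and 7 after the median of the other genes was subtracted. The r between the lines went from −0.26 to −0.032 without the 2 sgRNAs of most extreme CRISPRi value, and the r with signed position in CRISPRi from −0.14 to −0.029 (Spearman). Leaving out each sgRNA gave medians from −0.31 to −0.29 in CRISPRi and from 0.088 to 0.091 in CRISPRa, differences from −0.16 to −0.13 in CRISPRa, r with absolute distance from 0.00072 to 0.35 in CRISPRi and from −0.50 to −0.32 in CRISPRa, r with signed position from −0.51 to −0.30 in CRISPRa, and r between the lines from −0.45 to −0.14. The difference between downstream and upstream sgRNAs in CRISPRa, −0.14, was −0.11 from the annotated start, where NFE2_15 counts as downstream. It was −0.19 within 600 bp of the TSS, an alternative added after the data were seen. By rank, 5 of the 6 genes closest to *NFE2* stayed the same. No paired analysis was possible because the table pools the libraries and no test was run.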
